A study of Mus musculus with 9 samples.

Results

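The costimulatory and activation surface molecules of B cells were described through 10 genes, chosen by name: Cd80, Cd86, Icosl, Cd83, Cd69, Cd274, Pdcd1lg2, Tnfsf9, Cd38 and Cd24a. All 10 were found among the 29995 genes of an expression table that lacks immunoglobulin (Ig) genes, and all 10 passed the filter on low values, as did 12892 genes in all. RNA was sequenced from spleen cells of B6.Blimp1+/GFP mice, which carry a green fluorescent protein (GFP) reporter at 1 allele of Prdm1, the gene of Blimp1, so that cells of every group were heterozygous for it. The mice were 12 weeks old and had received 50 µg NP-LPS (a nitrophenyl hapten on lipopolysaccharide) in the peritoneum 4 days earlier, and this treatment is given for the naive libraries as well. There were 3 groups of 3 libraries: naive B cells (high IgD, B220+, not binding NP), NP-specific B cells (NP+ B cells: binding NP, B220+, without IgD, GFP or CD138) and plasma cells (PCs, binding NP, without IgD, positive for GFP and CD138, with or without B220), and CD4, CD8a, Ter-119 and F4/80 served to remove other cells. The NP-binding cells were sorted from 3 mice. Which library came from which mouse, and whether the naive cells came from the same mice, is not given in the sources used here. A change on activation here means NP+ B cells against naive B cells. These groups also differ in the gates on IgD, NP binding, GFP and CD138. Activation and a difference in the B cell subsets sorted therefore cannot be told apart.

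A B cell that has bound antigen presents peptides to helper T cells, and the ligands on its surface set which further signals the T cell receives. CD80 and CD86 bind CD28 and its inhibitory relative CTLA4, the ICOS ligand binds ICOS, PD-L1 and PD-L2 bind the inhibitory receptor PD-1, and 4-1BBL binds the TNF receptor family member 4-1BB. CD83 and CD69 are cell surface proteins used as signs of activation, CD38 is an ectoenzyme that consumes nicotinamide adenine dinucleotide, and CD24 is a small glycoprotein held in the membrane by a lipid anchor.

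Without Ig genes, 28490300 to 31719400 estimated reads were held by each naive library, 34918400 to 38602300 by each NP+ B cell library and 20189900 to 22137400 by each PC library. Levels are given as TPM, a transcript abundance corrected for gene length, so that genes can be compared with each other. The labels were checked against markers. Of the B cell markers, Cd79a had means of 3546, 2271 and 486 TPM in naive B cells, NP+ B cells and PCs, Ms4a1 of 864, 1277 and 110 TPM and Pax5 of 81.9, 50.4 and 0.688 TPM. The summed TPM of the plasma cell markers Prdm1, Sdc1, Xbp1 and Irf4 was 142 to 167, 162 to 189 and 4139 to 5137 in the 3 groups, most of it Xbp1. Sdc1 had a mean of 7.02 TPM in naive and 0.943 TPM in NP+ B cells. It encodes CD138, and NP+ B cells were sorted without CD138 and GFP, so low Sdc1 and Prdm1 there were favoured by the sort. On activation Irf4 fell from a mean of 25.1 to 11.1 TPM (limma adjusted p = 0.00555), while Prdm1 and Xbp1 were not called. All 4 rose in PCs against both B cell groups, where the sort on GFP and CD138 favoured high Prdm1 and Sdc1. Igj, the J chain gene and a further plasma cell marker, is present in the full table alone, where it was at 1.61 to 4.96 TPM in naive B cells, 273 to 465 TPM in NP+ B cells and 14196 to 16488 TPM in PCs. NP+ B cells thus carried more Igj RNA than naive B cells, and its part in the results was not tested. One PC library stood apart, since 6 liver genes summed to 4613 TPM in PC replicate 3 against 22.8 and 26.5 in the other PC libraries. The 5 neutrophil markers summed to 49.3 TPM in NP+ B cell replicate 2, against 0.408 and 0.597 in the other NP+ B cell libraries, and to 32.8 TPM in PC replicate 3, against 5.68 and 5.60. Without either library the same number of the 10 surface genes passed in each direction in every comparison.

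Of these genes, 4 differed between naive and NP+ B cells, and 7 were called in each comparison with PCs, nearly all of them lower in PCs. A gene was called with a limma adjusted p under 0.05 and a change of more than 2-fold. In NP+ B cells against naive B cells, 2 of the 10 genes rose (Cd80 and Cd86) and 2 fell (Icosl and Cd69), where 18.5% of all tested genes were called, 8.13% higher and 10.4% lower. Set against naive B cells, PCs had more Cd80, while 6 genes fell (Cd86, Icosl, Cd83, Cd69, Pdcd1lg2 and Cd38), where 37.8% of all tested genes were called, 11.4% higher and 26.3% lower. Both counts depend on the scaling. With Ig genes kept, 0 of the 10 genes were higher and 8 lower, beside 551 higher and 7943 lower of 12324 tested. With median-of-ratios scaling 2 were higher and 6 lower, beside 2349 and 1814 of 12892 tested. Set against NP+ B cells, PCs had none that limma called higher, with only Cd24a higher at an unadjusted p under 0.05, where the adjusted p was under it too but the change was under 2-fold, and 7 fell (Cd80, Cd86, Icosl, Cd83, Pdcd1lg2, Tnfsf9 and Cd38), where 32.2% of all tested genes were called, 9.93% higher and 22.3% lower. With Ig genes kept, 0 were higher and 9 lower against NP+ B cells, beside 420 higher and 7355 lower of 12324 tested. With median-of-ratios scaling 1 was higher and 7 lower, beside 2023 and 1788 of 12892 tested. The median log2 change of the 10 genes was -0.03, -2.73 and -2.11 in the 3 comparisons. For all tested genes it was -0.16, -0.47 and -0.30. Each pair of comparisons shares a group of libraries, so the counts are not independent of each other. The 10 genes were chosen with earlier results of these data known, so setting them beside all tested genes is a description only. The RNA was taken from many cells at once, so fewer cells of a type that carries a transcript and less of it per cell cannot be told apart.

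**Figure D1:**
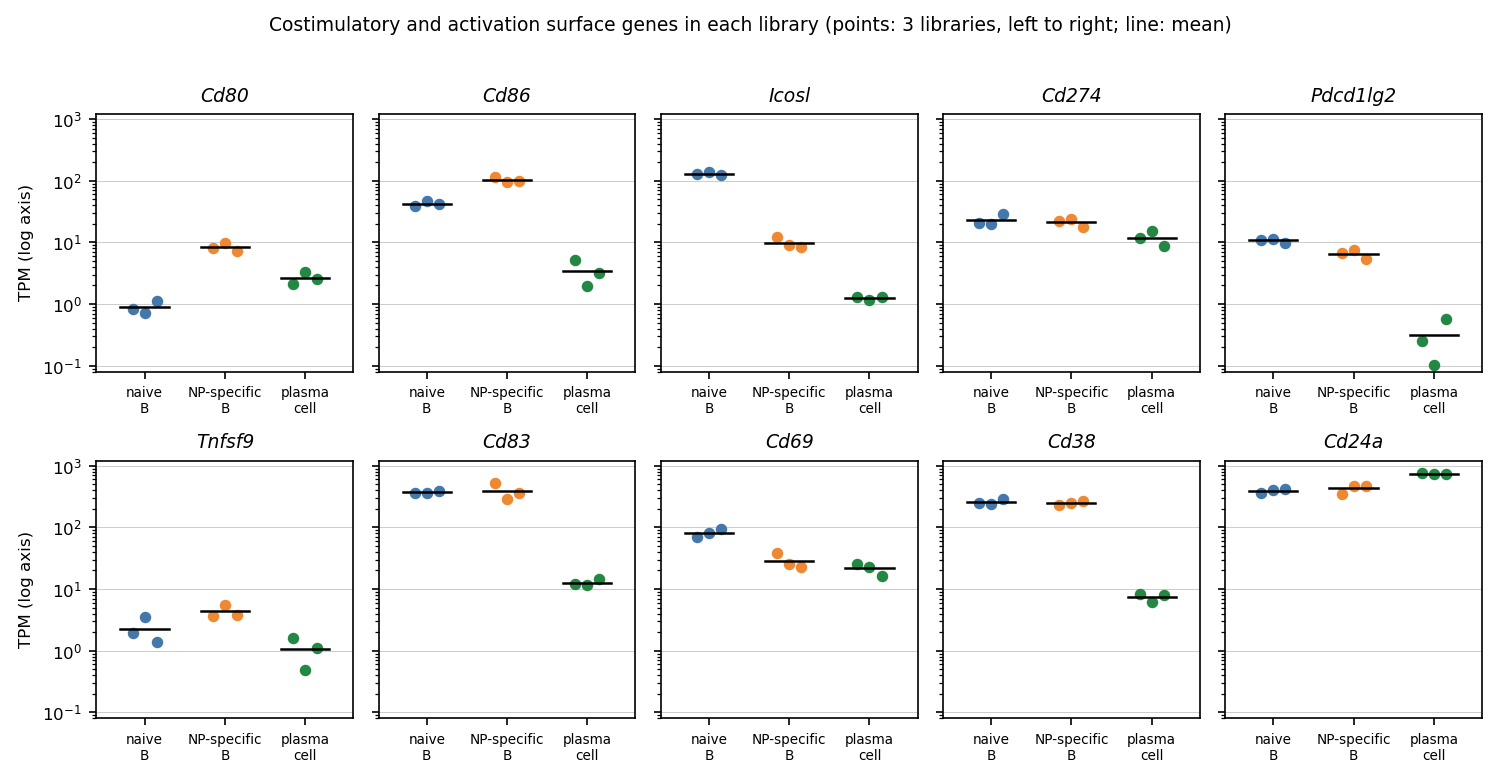
Level of each of the 10 surface genes in each library, in TPM on a log axis, for naive B cells, NP+ B cells and plasma cells; points are the 3 libraries of a group and the line is their mean. Icosl stepped down from a mean of 129 to 9.95 and then 1.25, Cd83 and Cd38 had similar means in both B cell groups and were low in PCs, and Cd24a was highest in PCs with a mean of 740.

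The order of the genes by level was similar in both B cell groups at the top and different in PCs. Cd24a and Cd83 led in naive B cells with means of 395 and 374 TPM and in NP+ B cells with 431 and 389 TPM, and in each group the libraries of these neighbours in the order overlapped. Cd38 followed in both, with 262 and 251 TPM. Icosl was the fourth in naive B cells and the seventh in NP+ B cells, where Cd86 had taken its place with 102 TPM. At the bottom of the order in NP+ B cells, Icosl, Cd80, Pdcd1lg2 and Tnfsf9 lay at means of 9.95 to 4.32 TPM, and each overlapped its neighbour. In PCs Cd24a stood far above the rest, and the next gene, Cd69, had a mean of 21.7 TPM. Cd24a made up 29.2 to 30.7% of the summed TPM of the 10 genes in naive libraries, 26.3 to 40.2% in NP+ B cell libraries and 91.6 to 93.0% in PC libraries. The other 9 genes together summed to 889 to 983, 706 to 960 and 55.8 to 68.9 TPM.

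The CD28 ligands were the surface genes that rose on activation, and they parted in PCs. Cd80 (chr16:38457430-38495958, plus strand, GRCm38.p6) encodes the ligand that binds CTLA4 most tightly. It measured 0.835, 0.726 and 1.11 TPM in naive B cells, 8.01, 9.64 and 7.27 TPM in NP+ B cells, and 2.08, 3.32 and 2.52 TPM in PCs. No library of one group reached into the range of another, and PCs lay between the B cell groups. The log2 change was 2.66 ± 0.27 (SE, n = 3 per group, limma adjusted p = 3.7e-05) in NP+ B cells against naive B cells, and 1.16 ± 0.30 (adjusted p = 0.00614) from naive B cells to PCs. Between PCs and NP+ B cells it was -1.496 ± 0.23 (limma adjusted p = 0.000214). Log2 changes here refer to log2 (TPM + 0.5), scaled to the sum of all TPM of a library. The added 0.5 understates differences for a gene as low as Cd80 in naive B cells, where 30 to 39 reads were counted per library. The change from naive B cells to PCs fell under 2-fold at an offset of 1 without voom weights. The higher level in PCs than in naive B cells rests on leaving out the Ig genes. In the table that kept them, Cd80 measured 0.619, 0.923 and 0.758 TPM in PCs and 0.782, 0.678 and 1.04 TPM in naive B cells, so that the groups overlapped. The mean TPM was lower in PCs, at 0.766 against 0.834. All TPM there sum to 671550 to 699885 in PC and 936731 to 937784 in naive libraries. Scaling to these sums turned the direction, and the log2 change of 0.38 did not pass (limma adjusted p = 0.175, the highest of 18 alternatives, the lowest being 0.00085).

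A promoter window of RefSeq, from 250 bases before to 50 after a start site in GRCm38.p6, was found for 5 of the 10 genes, and 4 are shown: Cd80 and Icosl, which moved in opposite directions on activation, and the PD-1 ligand genes Cd274 and Pdcd1lg2, which are neighbours and were lower in PCs by different amounts. The windows were searched on both strands for 2 short motifs, and capitals mark a match. The motifs were AGNGAAAG (of the type bound by Blimp1) and TGANTCA (of the type bound by AP-1). The Cd80 window, chr16:38458683-38458982 on the plus strand, belongs to a start site inside the gene's RefSeq span. It held 1 match, TGATTCA, of the AP-1 type, which begins at base -42 from the start site.
Cd80: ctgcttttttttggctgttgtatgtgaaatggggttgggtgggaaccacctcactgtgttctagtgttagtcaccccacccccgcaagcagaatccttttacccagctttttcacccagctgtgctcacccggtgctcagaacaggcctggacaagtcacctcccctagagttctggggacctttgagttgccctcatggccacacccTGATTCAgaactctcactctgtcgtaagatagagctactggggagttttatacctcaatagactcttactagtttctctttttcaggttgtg
Of 32851 promoter windows of the same length, 7.81% hold the AP-1 type motif and 8.63% the Blimp1 type. A match is a description of the letters and not evidence of a bound site.

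Cd86 (chr16:36568956-36666158, minus strand), on the same chromosome as Cd80 and 1791271 bases away, encodes the ligand that resting B cells already carry. It measured 39.6, 46.2 and 42.0 TPM in naive B cells, 113, 96.4 and 97.6 TPM in NP+ B cells, and 5.18, 1.96 and 3.19 TPM in PCs. The 3 groups did not overlap, with NP+ B cells highest and PCs lowest. The rise on activation was a log2 change of 1.25 ± 0.15 (SE, n = 3 per group, limma adjusted p = 9.92e-05), or 2.37-fold. PCs were 27.5-fold lower than NP+ B cells (log2 change -4.78 ± 0.25, limma adjusted p = 5.91e-08) and 11.6-fold lower than naive B cells (log2 change -3.54 ± 0.25, limma adjusted p = 6.17e-07). The ratio of the ligands was separate in the 3 groups. There was 37.8 to 63.6 times as much Cd86 as Cd80 in naive libraries by TPM, 9.997 to 14.1 times as much in NP+ B cell libraries, and 0.592 to 2.49 times as much in PC libraries.

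Myeloid cells also carry CD80 and CD86, so their markers were read beside the rise in NP+ B cells. The 10 macrophage and dendritic cell markers summed to 16.2 to 17.3 TPM in naive libraries, 88.6 to 108 TPM in NP+ B cell libraries and 44.998 to 95.4 TPM in PC libraries. Of the 10, Cd68, Itgam and Flt3 rose in NP+ B cells, with means of 57.6, 14.6 and 17.7 TPM against 3.98, 2.31 and 2.16 TPM. The other 7 were not called or were too low to be tested, and of these Emr1, the gene of F4/80, had means of 2.14 TPM in NP+ and 3.64 TPM in naive B cells, Xcr1 of 0.840 and 1.25, Siglech of 1.10 and 1.39, Clec9a of 0.205 and 0.370, Lyz2 of 2.14 and 1.08, Csf1r of 0.856 and 0.503 and Itgax of 0.759 and 0.180 TPM. None of the 10 was at 0 in all NP+ B cell libraries. The part of these transcripts in the rise of Cd80 and Cd86 was not tested.

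Icosl (chr10:78069368-78079525, plus strand), the gene of the ICOS ligand, showed the largest fall from naive to NP+ B cells among the 10 genes. It measured 127, 136 and 123 TPM in naive B cells, 12.2, 9.09 and 8.55 TPM in NP+ B cells, and 1.28, 1.15 and 1.30 TPM in PCs. The libraries formed 3 separate steps downward with little spread inside a step. The log2 change was -3.65 ± 0.15 (SE, n = 3 per group, limma adjusted p = 2.19e-07) in NP+ B cells against naive B cells, a 12.6-fold fall, and -2.56 ± 0.26 (adjusted p = 9.93e-06) in PCs against NP+ B cells, a further 5.92-fold. From naive B cells to PCs the fall was 74.4-fold (log2 change -6.22 ± 0.23, limma adjusted p = 4.17e-09), and 59 to 64 reads per library remained. Under every alternative run, the fall on activation stayed between -3.87 and -3.54 on the log2 scale. The promoter window of Icosl, chr10:78069118-78069417 on the plus strand, was rich in G and C, at 68.0% of its bases against a median of 52.7% over all windows, and held no match to the 2 motifs.
Icosl: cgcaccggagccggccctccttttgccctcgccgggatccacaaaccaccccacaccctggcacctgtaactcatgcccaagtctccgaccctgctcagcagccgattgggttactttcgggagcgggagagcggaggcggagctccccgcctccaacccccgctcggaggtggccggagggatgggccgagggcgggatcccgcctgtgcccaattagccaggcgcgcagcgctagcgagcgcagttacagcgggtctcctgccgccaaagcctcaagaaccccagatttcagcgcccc
The absence of a match says only that these letters are not in this window.

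The PD-1 ligand genes lie side by side, and both were lower in PCs, by amounts whose difference was not tested. Cd274 (chr19:29362107-29388095, plus strand) encodes PD-L1, and Pdcd1lg2 (chr19:29410919-29472927, plus strand) encodes PD-L2 and begins 22823 bases past the end of Cd274. Cd274 measured 20.9, 19.7 and 28.5 TPM in naive B cells, 22.2, 23.8 and 17.6 TPM in NP+ B cells, and 11.9, 15.2 and 8.72 TPM in PCs. The B cell groups overlapped, and each PC library lay below all of them. The change in PCs did not pass 2-fold, at -0.94 ± 0.23 on the log2 scale (SE, n = 3 per group, limma adjusted p = 0.00428) against naive B cells and -0.82 ± 0.23 (adjusted p = 0.0108) against NP+ B cells. It did pass with Ig genes kept (-2.02 and -1.89), without naive replicate 2 (-1.04 against naive B cells) and without PC replicate 2 (-1.13 and -1.01), and over all alternatives the adjusted p ran from 2.01e-05 to 0.115 against naive B cells and from 3.58e-05 to 0.164 against NP+ B cells.

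Pdcd1lg2 measured 11.1, 11.4 and 9.90 TPM in naive B cells, 6.73, 7.50 and 5.36 TPM in NP+ B cells, and 0.248, 0.104 and 0.575 TPM in PCs. The groups were separate, in steps downward. In NP+ B cells the log2 change against naive B cells, -0.71 ± 0.19 (SE, n = 3 per group, limma adjusted p = 0.0131), was under 2-fold. In PCs the log2 change was -3.85 ± 0.31 (limma adjusted p = 1.44e-06) against naive B cells and -3.15 ± 0.32 (adjusted p = 1.08e-05) against NP+ B cells. The PC values rest on 6.9, 2.9 and 15.8 estimated reads, of which those of replicate 2 lie under the floor of 3 reads used here, so they are imprecise. Cd274 exceeded Pdcd1lg2 by 1.72 to 2.88 times in naive libraries, 3.17 to 3.29 times in NP+ B cell libraries and 15.2 to 147 times in PC libraries, where Pdcd1lg2 had few reads. Neither promoter window, chr19:29367188-29367487 for Cd274 (at a start site inside its RefSeq span) and chr19:29410669-29410968 for Pdcd1lg2, held a match to the 2 motifs, and 52.7% and 46.0% of their bases were G or C.
Cd274: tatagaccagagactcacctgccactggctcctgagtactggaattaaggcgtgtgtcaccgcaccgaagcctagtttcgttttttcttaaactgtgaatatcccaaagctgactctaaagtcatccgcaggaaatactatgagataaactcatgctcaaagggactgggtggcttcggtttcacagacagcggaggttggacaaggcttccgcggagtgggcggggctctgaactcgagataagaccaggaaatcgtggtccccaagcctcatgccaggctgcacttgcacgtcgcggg
Pdcd1lg2: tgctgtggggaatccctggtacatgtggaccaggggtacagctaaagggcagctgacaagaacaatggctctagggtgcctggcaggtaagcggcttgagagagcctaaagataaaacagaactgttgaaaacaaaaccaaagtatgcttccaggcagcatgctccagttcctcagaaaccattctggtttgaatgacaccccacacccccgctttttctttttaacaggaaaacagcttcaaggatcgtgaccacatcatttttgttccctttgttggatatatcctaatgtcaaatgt

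Tnfsf9 (chr17:57105287-57107758, plus strand), the gene of 4-1BBL, was the least steady of the 10 genes between libraries of a group. It measured 1.91, 3.47 and 1.39 TPM in naive B cells, 3.67, 5.50 and 3.8 TPM in NP+ B cells, and 1.61, 0.491 and 1.13 TPM in PCs. Every NP+ B cell library was above every other library, though naive replicate 2 came close. The within-group SD was 0.48 on the log2 scale, larger than in 80.4% of tested genes. The fall from NP+ B cells to PCs passed (log2 change -1.66 ± 0.37, SE, n = 3 per group, limma adjusted p = 0.00296). The change on activation did not, at 0.85 ± 0.33 (limma adjusted p = 0.0598), and it passed without naive replicate 2 (1.15, adjusted p = 0.0362) and with quantile normalization (1.02, adjusted p = 0.0294), among 18 alternatives whose highest adjusted p was 0.214. In PCs against naive B cells the libraries overlapped, and the log2 change of -0.81 ± 0.40 did not pass (limma adjusted p = 0.0991), except in 1 of 18 alternatives. The count was 10 to 31 reads per PC library. Part of the gene overlaps Gm11110, a noncoding gene on the opposite strand with at most 4.88 TPM in any library, and reads without strand cannot be told apart there.

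Cd83 (chr13:43785112-43803133, plus strand) encodes a protein that holds MHC class II and CD86 at the surface by opposing the ubiquitin ligase MARCH1. It measured 367, 366 and 390 TPM in naive B cells, 522, 284 and 363 TPM in NP+ B cells, and 12.2, 11.6 and 14.4 TPM in PCs. NP+ B cells lay on both sides of naive B cells, and PCs were far below both. The log2 change on activation was 0.0029 with a 95% interval of -0.38 to 0.39 (limma adjusted p = 0.99). In PCs the fall was 28.5-fold against naive B cells (log2 change -4.83 ± 0.27, SE, n = 3 per group, limma adjusted p = 9.02e-08) and 28.6-fold against NP+ B cells (log2 change -4.84 ± 0.27, adjusted p = 1.18e-07). March1, listed among the partners of these genes, fell at both steps, from a mean of 66.2 TPM in naive B cells to 26.0 TPM in NP+ B cells and 1.21 TPM in PCs, though the first fall did not pass with the authors' log2 values (limma adjusted p = 0.0543, the highest of 19 alternatives, the lowest being 0.000163).

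Cd69 (chr6:129267324-129275375, minus strand) encodes a lectin-like protein that holds the egress receptor S1PR1 inside the cell, and it was lower, not higher, in NP+ B cells than in naive B cells 4 days after immunization. It measured 69.5, 81.7 and 95.5 TPM in naive B cells, 37.9, 25.0 and 22.9 TPM in NP+ B cells, and 25.9, 23.2 and 16.0 TPM in PCs. Every naive library was above every other library, and the NP+ B cell and PC libraries overlapped. The log2 change was -1.54 ± 0.21 (SE, n = 3 per group, limma adjusted p = 0.000258) in NP+ B cells and -1.92 ± 0.22 (adjusted p = 2.32e-05) in PCs, both against naive B cells. Between PCs and NP+ B cells it was -0.38, with a 95% interval of -0.92 to 0.15 (limma adjusted p = 0.21), and it changed sign with quantile normalization (0.06) and passed with Ig genes kept (-1.52), the adjusted p ranging from 0.000387 to 0.989 over the alternatives. S1pr1 fell in both comparisons with PCs and was not called on activation, with means of 268, 197 and 28.6 TPM in the 3 groups.

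Cd38 (chr5:43868809-43912374, plus strand), whose product is used to tell B cell stages apart in the mouse, had a similar level in both B cell groups and was low in PCs. It measured 251, 243 and 290 TPM in naive B cells, 235, 246 and 272 TPM in NP+ B cells, and 8.44, 6.24 and 8.02 TPM in PCs. The B cell groups overlapped and the PC libraries stood far below. The log2 change on activation was -0.07, with a 95% interval of -0.29 to 0.16 (limma adjusted p = 0.612). In PCs the fall was 32.8-fold against naive B cells (log2 change -5.03 ± 0.17, SE, n = 3 per group, limma adjusted p = 2.21e-09) and 31.3-fold against NP+ B cells (log2 change -4.97 ± 0.17, adjusted p = 3.23e-09). Cd38 was among the steadier genes, since its within-group SD of 0.16 on the log2 scale exceeded that of 20.7% of tested genes.

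Cd24a (chr10:43579169-43584265, plus strand) was the only one of the 10 genes whose PC libraries all lay above all libraries of both B cell groups. It measured 367, 402 and 416 TPM in naive B cells, 342, 474 and 477 TPM in NP+ B cells, and 756, 723 and 742 TPM in PCs. In PCs the log2 change was 0.90 ± 0.12 (SE, n = 3 per group, limma adjusted p = 7.89e-05) against naive B cells and 0.80 ± 0.12 (adjusted p = 0.000216) against NP+ B cells, both under 2-fold, so Cd24a was not called. The direction turned with Ig genes kept, where the log2 changes were -0.32 (limma adjusted p = 0.0518) and -0.41 (adjusted p = 0.0201), and the changes passed 2-fold with median-of-ratios scaling (1.39 and 1.18) and, against naive B cells, with the authors' log2 values (1.0008). In the full table Cd24a measured 225, 201 and 223 TPM in PCs, below the 344 to 389 TPM of naive B cells and the 302 to 431 TPM of NP+ B cells. All TPM there sum to 671550 to 699885 in PC, 936731 to 937784 in naive and 902902 to 912982 in NP+ B cell libraries. The fits scale to these sums, so the TPM differ by more than the log2 changes of -0.32 and -0.41. Among genes other than Ig genes Cd24a thus took a larger share in PCs, and among all genes of the full table a smaller one. Over the alternatives the adjusted p ran from 2.52e-06 to 0.0518 against naive B cells and from 4.08e-05 to 0.0201 against NP+ B cells.

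**Figure D2:**
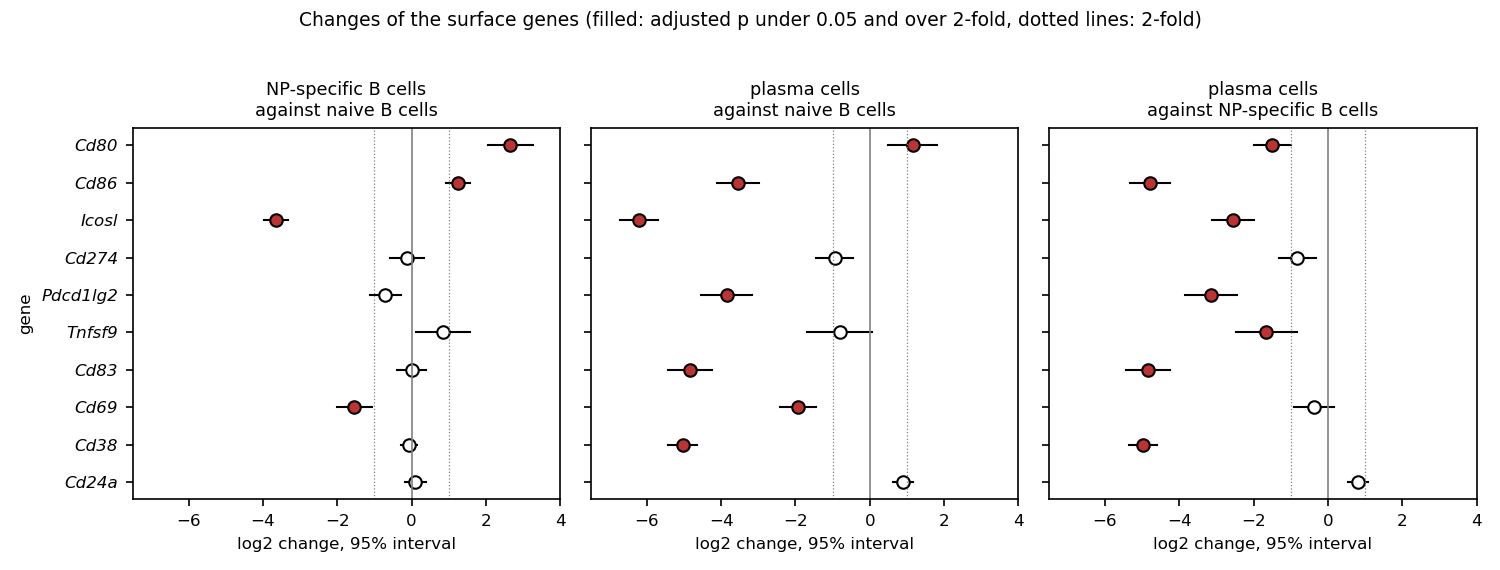
Log2 change of the 10 surface genes in the 3 comparisons, with 95% intervals of the limma fit; filled points passed an adjusted p under 0.05 and 2-fold, and dotted lines mark 2-fold. Changes on activation were few and ran both ways, from 2.66 for Cd80 to -3.65 for Icosl, and PC changes lay mostly to the left, down to -6.22 for Icosl.

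Groups whose libraries do not overlap were more frequent than calls, for these genes and for all others. In NP+ B cells against naive B cells, 3 of the 10 genes had all libraries higher and 3 all lower, where this held for 23.6% and 32.4% of tested genes. In PCs against naive B cells the counts were 2 and 7, where it held for 21% and 48.7%. In PCs against NP+ B cells they were 1 and 8, where it held for 17.3% and 40.9%.

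The dependence of the PC changes on what the values are scaled to is shown by the plot of 4 scalings. With Ig genes kept, the median of all tested genes moved by -0.93 against naive B cells and -0.97 against NP+ B cells, and with median-of-ratios scaling by 0.49 and 0.38. The falls of Cd86, Icosl, Cd83, Pdcd1lg2 and Cd38 were larger than these shifts and passed under each of the 4 scalings. The smaller changes of Cd80, Cd274, Tnfsf9, Cd69 and Cd24a each gained, lost or turned a call under at least 1 of them.

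**Figure D3:**
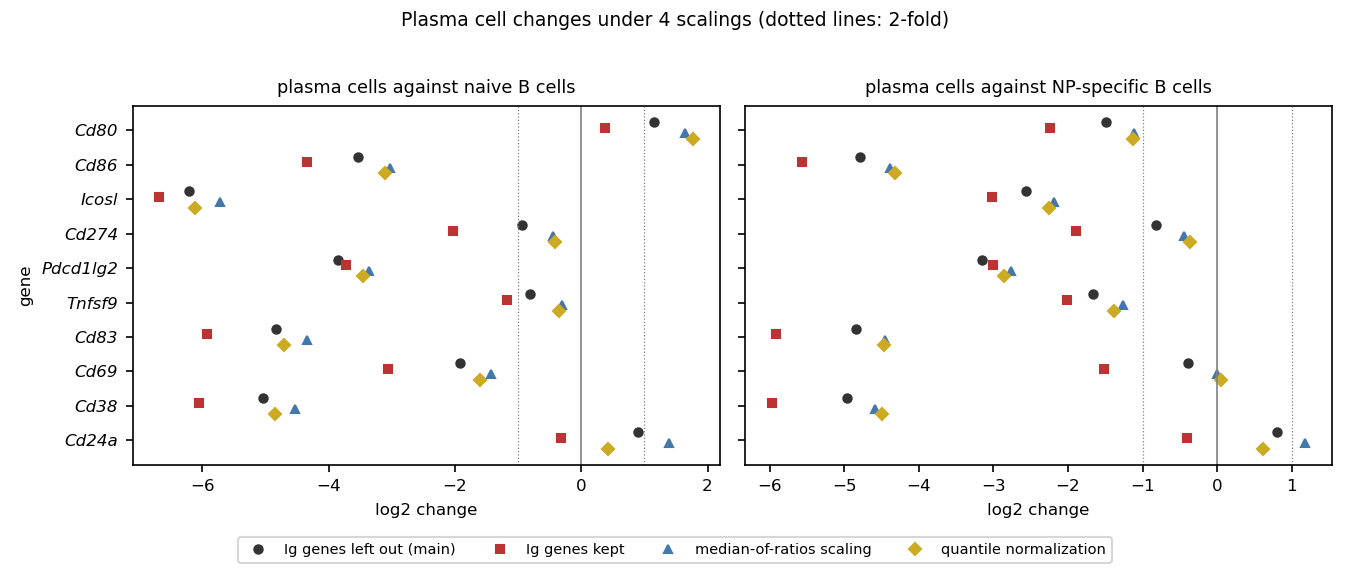
Log2 change of each surface gene in PCs against naive B cells (left) and against NP+ B cells (right) under 4 scalings; each symbol is the estimate of 1 fit and dotted lines mark 2-fold. Cd24a lies right of 0 with Ig genes left out (0.90 and 0.80) and left of 0 with them kept (-0.32 and -0.41), while Cd38, Cd83 and Cd86 stay below -3 in all 4.

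The genes with the most similar profile to each surface gene were found by the root mean square (RMS) difference of log2 (TPM + 0.5) values, each centred on its own mean over the 9 libraries. Nearest to Cd80 was Fgl2 (RMS difference 0.19), followed by the integrin gene Itgb1 (0.23) and Mgst2 (0.24). Nearest to Cd86 were Gbp2 (0.26), Parp8 (0.27) and Tnni2 (0.36). Icosl had no close companion, and Treml2 at 0.37, Rnf144a at 0.49 and Neurl3 at 0.50 came next. Cd83 was closest to the B cell transcription factor gene Ebf1 (0.21), to Cd38 (0.27) and to Cd2 (0.27). Cd38 in turn was closest to Pirb (0.14), Rasgrp1 (0.20) and Lmo2 (0.24). Nearest to Cd24a were Eif2b4 (0.12), Rabgap1l (0.13) and Eif3m (0.13), of which Eif2b4 and Eif3m encode translation initiation factors, and nearest to Cd274 was Exoc1 (0.14). Cd69 lay nearest to Eif4e1b (0.18) and Snrk (0.18), Pdcd1lg2 to Gmip (0.20) and Gpsm3 (0.21), and Tnfsf9 to Tlr7 (0.32). The libraries of a group share most of such a difference, so the measure orders patterns over 3 groups and carries no test.

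Of 5 receptors of these ligands, Cd28 and Ctla4 passed the filter on low values, both through the PC libraries alone, so that they had to be higher there and their levels are given without a test. Cd28, the costimulatory receptor known from T cells and from long-lived plasma cells, measured 0.886, 0.456 and 0.730 TPM in naive B cells, 0.127, 0.671 and 1.495 TPM in NP+ B cells, and 133, 141 and 105 TPM in PCs. The groups of B cells overlapped at levels of 1.495 TPM or less, far below the PC libraries. Ctla4 had means of 0.748 and 0.783 TPM in the B cell groups and 13.1 TPM in PCs. The 7 T cell markers summed to 4.60 to 7.57 TPM in PC libraries, 56.1 to 64.2 TPM in naive and 24.3 to 58.4 TPM in NP+ B cell libraries. Without Lck, which accounted for most of the B cell sums, they summed to 4.34 to 6.58 TPM, 5.46 to 7.52 TPM and 3.78 to 4.74 TPM in the same order. In each PC library Cd3e, Lck and Thy1 were under 1 TPM, none of the 7 was at 0 in all of them, and Cd3g had a mean of 1.14 TPM against 0.130 TPM in naive B cells. The part of such transcripts in the levels of Cd28 and Ctla4 was not tested. PCs held 25.7 to 72.0 times as much Cd28 as Cd86 by TPM, where naive libraries held at most 0.0224 times as much. Icos, Pdcd1 and Tnfrsf9, the receptors of the ICOS ligand, the PD-1 ligands and 4-1BBL, were too low to be tested, at means of 0.199 to 0.499 TPM, 0.271 to 1.32 TPM and 0.129 to 0.759 TPM over the 3 groups.

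**Figure D4:**
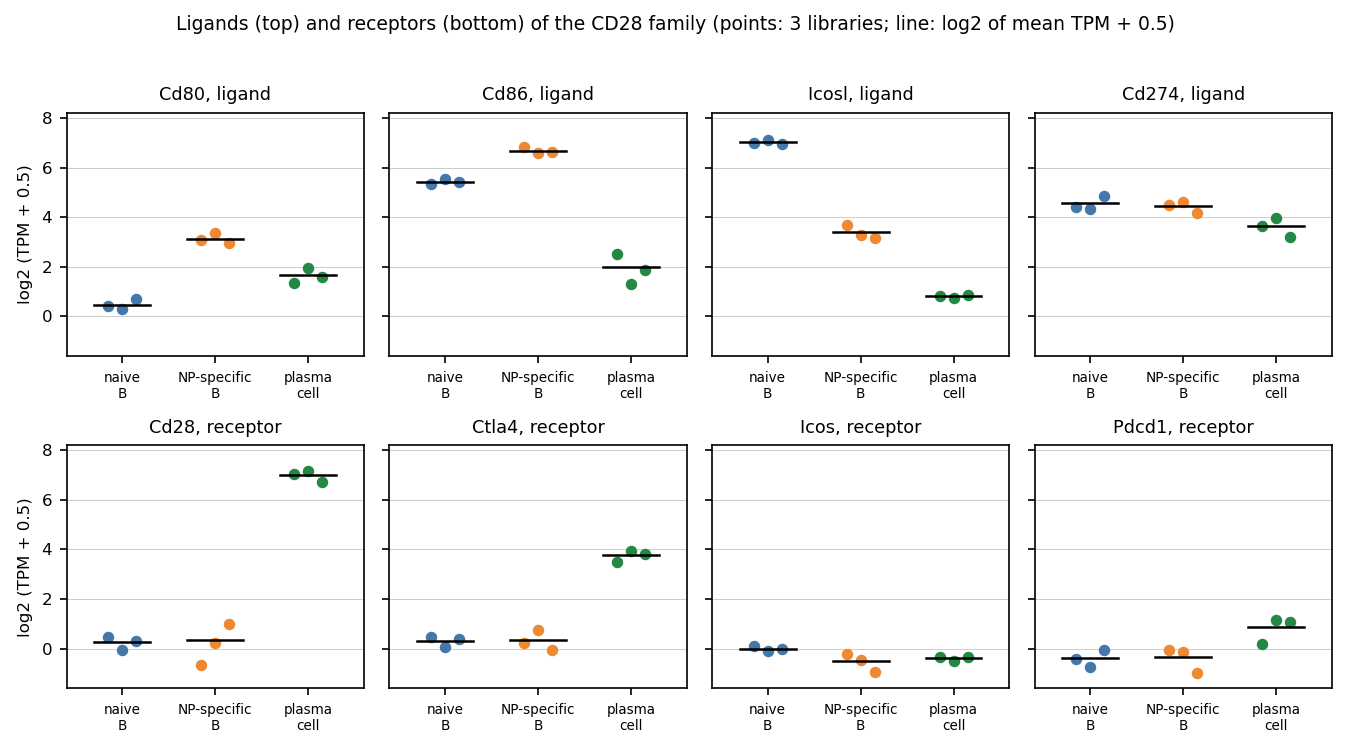
Levels of 4 ligand genes (top) and 4 receptor genes (bottom) of the CD28 family in each library, as log2 (TPM + 0.5); points are the 3 libraries of a group and the line is the log2 of the mean TPM + 0.5. Cd86 and Icosl are lowest in PCs with means of 3.44 and 1.25 TPM, while Cd28 and Ctla4 are highest there with means of 126 and 13.1 TPM, and Icos and Pdcd1 stay at or below a mean of 1.32 TPM.

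The list of other B7 and CD28 family genes also holds Tnfrsf14, the gene of HVEM, a TNF receptor family member that binds BTLA and is not counted with the TNF family genes. Of 11 listed, 6 were tested. Beside Cd28 and Ctla4, which the filter let through for their PC levels, Vsir (listed as 4632428N05Rik, the gene of the inhibitory protein VISTA) rose in PCs against naive B cells, and Cd276, Btla and Tnfrsf14 fell, the last of which did not pass in 8 of 18 alternatives. Of all tested genes 11.4% rose and 26.3% fell in that comparison. In PCs against NP+ B cells, Vsir rose and Cd276 and Btla fell, where 9.93% and 22.3% of all tested genes did. Cd28 and Ctla4 are left out here, since the filter fixed their direction. In NP+ B cells against naive B cells 1 fell, where 10.4% of all tested genes did. Vsir went from means of 12.9 and 11.5 TPM in the B cell groups to 77.9 TPM in PCs. Btla, an inhibitory receptor of B and T cells, fell at both steps, from 186 to 72.5 and then 5.69 TPM.

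Of 14 other genes of TNF family costimulation, 5 were tested: Cd40, Tnfrsf4, Cd27, Tnfrsf18 and Fas. Cd40, the receptor for CD40 ligand, had means of 254, 157 and 2.88 TPM, and it fell 78.9-fold from naive B cells to PCs (limma adjusted p = 4.41e-09). Fas, the death receptor, followed the rise and fall of Cd86 with means of 9.24, 42.9 and 3.67 TPM, rising 4.39-fold on activation (limma adjusted p = 1.35e-05). Of the 5, 1 was called on activation, which was Fas, and Cd40, Tnfrsf18 and Fas fell in each comparison with PCs (all tested genes: 18.5% called on activation, and 26.3% and 22.3% lower in PCs), Fas against naive B cells not passing in 2 of 19 alternatives. Cd27 and Tnfrsf4 were not called, with means of 19.3 and 2.12 TPM in naive B cells and 11.7 and 1.12 TPM in PCs.

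The SLAM and CD2 family, receptors that mostly bind each other on neighbouring lymphocytes, had all 8 genes tested. On activation 1 was called, and in each comparison with PCs 1 rose and 5 fell, where 18.5% of all tested genes were called on activation, 37.8% in PCs against naive B cells and 32.2% in PCs against NP+ B cells. Against naive B cells the falls of Cd244 and Ly9 did not pass in 6 of 18 and 2 of 19 alternatives. Against NP+ B cells the fall of Cd244 was under 2-fold without PC replicate 2, at a log2 change of -0.996, and that of Cd84 with quantile normalization, at -0.97. The gene that rose in each was Slamf7, with means of 52.2, 108 and 801 TPM, though its rise on activation was close to 2-fold and dropped below it in 4 of 19 alternatives. Cd2 was at 411, 393 and 17.8 TPM, a course like that of Cd83 and Cd38.

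Among 12 other activation antigens, all tested, 1 rose and 3 fell on activation, 4 rose and 6 fell in PCs against naive B cells, and 2 rose and 5 fell in PCs against NP+ B cells. Of all tested genes, 8.13% rose and 10.4% fell on activation, 11.4% rose and 26.3% fell in PCs against naive B cells, and 9.93% rose and 22.3% fell in PCs against NP+ B cells. Il2ra passed the filter on low values through naive B cells alone and Cd5 through NP+ B cells alone, so a fall of Il2ra from naive B cells, or of Cd5 from NP+ B cells, was favoured by the filter. The falls to PCs that this leaves were Cd200, Cd72, Fcer2a, Il4ra and Cd5 from naive B cells. From NP+ B cells they were Cd200, Cd72, Fcer2a and Il4ra. Against naive B cells the falls of Il2ra and Cd5 did not pass in 8 of 18 and 4 of 18 alternatives. Fcer2a, the low-affinity IgE receptor CD23, stepped down as Icosl did, from 825 to 206 and 1.34 TPM, and Il4ra, a chain of the IL-4 receptor, from 35.9 to 7.45 and 0.896 TPM. Those that rose in PCs against naive B cells were Cd44, Slc3a2, Ly6a and Cd9, which passed 2-fold with Ig genes left out and were all under it with them kept, at log2 changes of 0.83, 0.38, 0.51 and 0.97. The rise of Cd44 against NP+ B cells was also under 2-fold with Ig genes kept, at a log2 change of 0.49. Among 10 partners of the surface genes, 8 were tested, beside the same shares of all tested genes. March1 and Cmtm6 fell on activation. In PCs against naive B cells 5 fell (March1, Cmtm6, S1pr1, Siglecg and Pecam1), and these 5 and Nt5e fell in PCs against NP+ B cells. Bst1 rose on activation and fell in PCs against NP+ B cells. It passed the filter through NP+ B cells alone, which favoured both directions, so it is left out of these counts. Cmtm6, whose product keeps PD-L1 at the surface, fell from 132 to 60.6 and 27.9 TPM, and Siglecg, a receptor for CD24, was at 318, 291 and 19.7 TPM. From NP+ B cells to PCs the falls of Cmtm6 and Nt5e did not pass in 4 of 19 and 5 of 18 alternatives.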

How the data were processed

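RNA-seq was analysed from 9 libraries in 3 groups of 3, grouped by their labels. The deposited TPM values were made by the authors with kallisto and summed per gene, and the submitters' notes name mm10. The authors also deposited log2 values, which voom had given at an offset of 0.5 counts. The library totals recovered from these values are on the scale of reads and not of TPM. Estimated reads per gene and library were recovered from the same values. Of the full table's 30317 genes, 322 Ig genes were absent from the table used for the main results. The Ig RNA of PCs takes reads from all other genes, so a level depends on which table is read.

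Without Ig genes, TPM values went through voom and limma (version 3.58.1, R 4.3.3), scaled to the column sum. The fit was 1 model of all 9 libraries with a mean per group (3 means) and no block. Since voom was given TPM in place of counts, its weights do not follow the read counts. The 12892 genes that reached a TPM of 1 in 3 or more libraries were tested, with Benjamini-Hochberg adjustment over all of them, and the steps were tested on simulated data. Named genes were the 10 surface genes, called genes of lists of related genes, B and plasma cell markers, and the 3 nearest profiles of each surface gene, while Icos, Pdcd1, Tnfrsf9, uncalled list genes and single markers of other cells were named after their values were seen. The members and lists were chosen with earlier results of these data known. Alternatives were other offsets, both without voom weights, other filters on low values, Ig genes kept, median-of-ratios and quantile scaling, the authors' log2 values, the replicate number as a block, only the 6 libraries compared, and each library left out. Coordinates and promoter windows are RefSeq's for GRCm38.p6, the assembly that mm10 names. Since no source ties libraries to mice, p-values measure the spread between libraries. Whether reads were counted by strand is not given in the sources used here. One gene of a marker list is not reported here.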

Additional observations from a re-analysis of the deposited data

How the results depend on the processing

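Over 19 alternatives, 534 values of the 10 surface genes kept direction and side of the threshold, 12 newly passed, 2 no longer passed and 13 changed sign. Every sign change was of a change that had not passed. On activation, Cd83 (main 0.0029) was at -0.010 with Ig genes kept, -0.24 with quantile normalization and between -0.23 and 0.21 with 1 library left out, Cd38 at 0.042 with median-of-ratios scaling and between -0.13 and 0.0096 with 1 library left out, Cd274 between -0.22 and 0.040 with 1 library left out, and Cd24a at -0.18 with quantile normalization. In PCs, Cd24a was at -0.32 and -0.41 with Ig genes kept, and Cd69 at 0.056 against NP+ B cells with quantile normalization. Cd80 in PCs against naive B cells lost its call with Ig genes kept (0.38) and fell under 2-fold at an offset of 1 without voom weights (0.94). With a mean TPM of at least 10 asked, 7 of the 10 genes were tested and 4 were called in PCs against NP+ B cells in place of 7, and 1179, 2965 and 2640 of all genes were called in the 3 comparisons in place of 2388, 4870 and 4150, since fewer genes were tested. With Ig genes kept, 8494 genes were called in PCs against naive B cells and 7775 in PCs against NP+ B cells, of which 6.49% and 5.4% were higher, against 30.2% and 30.8% in the main result. Median-of-ratios scaling brought the higher share of calls to 56.4% and 53.1% and quantile normalization to 50.2% and 49.3%, and on activation they brought it from 43.9% to 55.2% and 54.2%. The cause of these differences was not tested, beyond the sums to which the values are scaled. Where 1 library was left out, 4 to 5, 7 to 8 and 7 to 8 of the 10 genes were called in the 3 comparisons.

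Libraries with the same replicate number did not deviate together, since the 9 correlations of their deviations from the group means ran from -0.075 to 0.068. With the replicate block, 2453, 4898 and 4238 genes were called and the calls of the 10 genes did not change. Depth limits Pdcd1lg2 and Tnfsf9 in PCs, which rest on 2.9 to 15.8 and 10 to 31 reads per library.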
